A study of Mus musculus with 8 samples.

Results

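The transcripts of endothelial cells, the cells that line blood vessels, were measured in the brains of Flvcr2 heterozygous mouse embryos, and their levels are described here without comparison to the knockout. The members are the genes with a mean of 1 or more counts per 1000000 counts (CPM) over the 4 heterozygous libraries: 13264 of the 24421 genes in the table of read counts. The study compared brain endothelial cells of Flvcr2 heterozygous and Flvcr2 knockout embryos, with 4 libraries of each. All 8 libraries were labelled as strain C57Bl6, embryonic stage E14.5 and brain, and all came from cells positive for both GFP and CD31. GFP is made from the mutated Flvcr2 gene, so every sorted cell, heterozygous cells included, carried at least 1 mutated Flvcr2 allele, and no wild-type group is described. CD31 is the product of Pecam1. The levels of Pecam1 and Flvcr2 are therefore tied to how the cells were picked and are no finding. The labels do not say whether the 4 libraries came from separate embryos, so the spread between them may be partly technical.

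The CPM values were scaled with TMM factors, which even out differences in library composition. A mean of 1 CPM is a bound through a continuous range. The member closest to it had 1.0009 CPM and the gene just below it had 0.999955 CPM, with 131 members between 1 and 1.1 CPM and 165 genes between 0.9 and 1 CPM that were left out. Of the members, 12723 were annotated as protein coding and 11694 reached 1 CPM in each of the 4 libraries. Another 7184 genes of the table had no count in any heterozygous library.

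Brain endothelial cells form the blood-brain barrier. Tight junctions built from claudins close the path between cells, vesicle traffic across the cell is held low, and nutrients enter through carriers of the solute carrier (SLC) families, such as the glucose transporter Slc2a1 and the lysolipid transporter Mfsd2a. Wnt signalling through beta-catenin is known to induce these properties as vessels grow into the embryonic brain, where VEGF, angiopoietin, Notch and TGF-beta receptors also act. Flvcr2, listed in the table under the older symbol Mfsd7c, belongs to the same superfamily of carriers as Mfsd2a.

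Reads of 50 nucleotides must separate paralogs, the related copies of a gene, for their levels to be compared. The first 60 coding bases of the 2 cytoplasmic actins are shown because both stand near the top of the table and differ at enough positions to be told apart over most of their length (GENCODE M21, GRCm38). Capitals mark positions that differ between them. Actb lies at chr5:142903115-142906754 and Actg1 at chr11:120345690-120348542, both on the minus strand.
Actb: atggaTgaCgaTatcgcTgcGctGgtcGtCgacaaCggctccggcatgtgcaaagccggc
Actg1: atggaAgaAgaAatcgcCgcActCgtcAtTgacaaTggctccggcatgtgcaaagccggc
Over 1125 coding nucleotides Actb and Actg1 differed at 128 positions (88.6% identity), and the longest identical stretch was 62 nucleotides.

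The 100 bases before the annotated start of the genes for the barrier claudin Cldn5 and for Mfsd2a are given because both are defining members and differ in 1 common promoter element (RefSeq, GRCm38.p6). Capitals mark the GC box, searched as GGGCGG on both strands (CCGCCC when read on the other strand). The Cldn5 window is chr16:18776747-18776846 (plus strand) and the Mfsd2a window is chr4:122961189-122961288 (minus strand).
Cldn5: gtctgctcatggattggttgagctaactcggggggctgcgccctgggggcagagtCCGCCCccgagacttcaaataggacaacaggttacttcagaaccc
Mfsd2a: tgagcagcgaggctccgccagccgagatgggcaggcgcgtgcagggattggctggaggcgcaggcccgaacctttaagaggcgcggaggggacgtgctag
The letters of the GC box occurred in this window of 5250 of the 10101 members with a promoter entry (52.0%), of 22 of 33 such genes among the 50 most abundant (66.7%), of 6 of 14 genes of the endothelial surface list (42.9%) and of 7388 of all 27025 promoters in the table (27.3%). The letters TATAAA, searched on the gene's own strand only, lay 40 to 20 bases before the start in 1.21% of members, in 6.06% of the 33 most abundant genes with an entry and in 2.25% of all promoters. These 2 of 33 were Ppia and Prdx1. Matches are descriptions of the letters and no evidence of binding.

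Heterozygous libraries 1 to 4 held 9562478, 9107329, 22615252 and 18030185 counts. Lists of genes known from other cells of the embryonic brain were detected too, and their summed levels moved between libraries. The 20 neuronal genes summed to 2131, 332, 908 and 479 CPM, and each of the 20 was highest in library 1. Microglia and macrophage genes summed to 1699, 1581, 645 and 1837 CPM, and each of the 16 was lowest in library 3. Of all 4032 genes at 50 CPM or more, 741 were highest in library 1 and 1042 lowest in library 3. Choroid plexus genes summed to 593, 444, 661 and 9434 CPM, of which Ttr, the transthyretin that choroid plexus secretes, gave 299, 7.12, 145 and 8753 CPM. Enpp2, the secreted enzyme autotaxin, gave 263, 431, 503 and 379.6 CPM, most of the sum in libraries 2 and 3. Embryonic red cell genes summed to between 254 and 629 CPM, pericyte and smooth muscle genes to between 374 and 519 CPM, and fibroblast and meningeal genes to between 248 and 476 CPM. Radial glia genes summed to between 1346 and 1462 CPM, of which Vim, an intermediate filament that endothelial cells also express, gave a mean of 868 CPM. Platelet genes summed to between 37.8 and 154 CPM, oligodendrocyte precursor genes to between 9.03 and 44.9 CPM, and lymphatic endothelial genes to between 92.6 and 186 CPM, most of it Flt4. The defining genes Myh11 of smooth muscle, Ccl21a of lymphatic endothelium and the adult globins Hba-a1 and Hba-a2 had no count in any library. For Myh11 a count of 0 in 4 libraries allows up to 3 counts, or 0.0489 CPM, and this limit covers counting error only. It does not bound the other 3 genes, since 71.6% of the 50-nucleotide windows of Ccl21a, 67.5% of Hba-a1 and 86.9% of Hba-a2 occurred in another annotated gene and the counting rule for reads that match several places is unknown here. The part of other cells in the levels below was not tested, and in bulk RNA fewer cells of a type and less RNA per cell cannot be told apart.

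**Figure D1:**
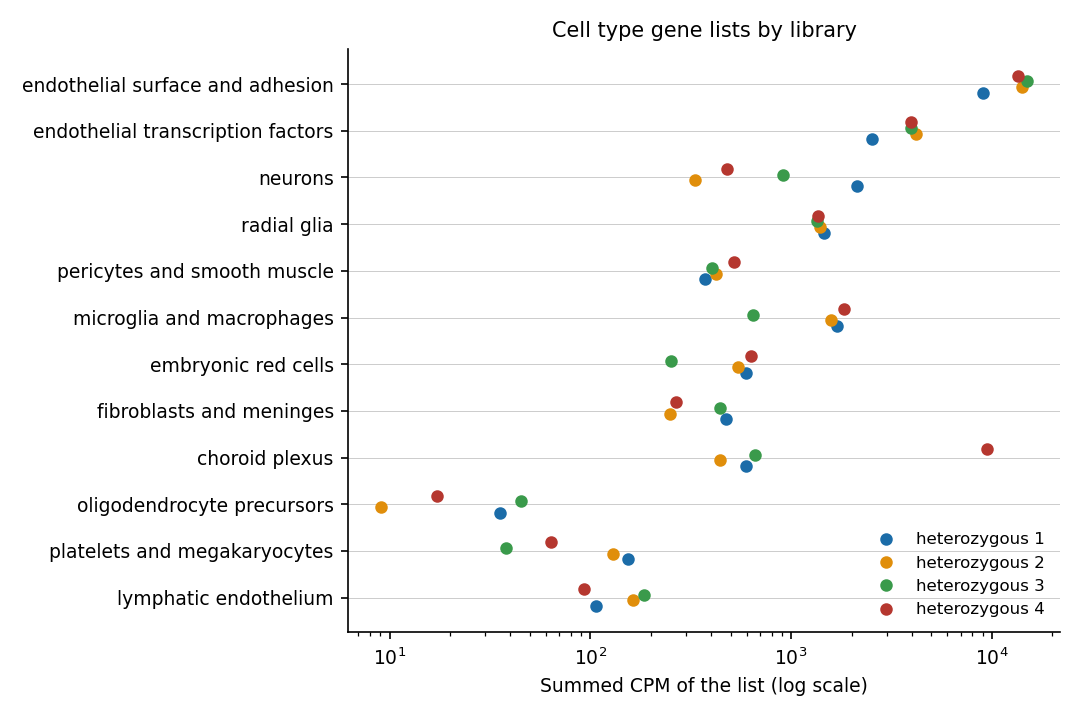
Summed TMM-scaled CPM (log axis) of 2 endothelial lists and of each list of genes known from another cell type, with 1 point per heterozygous library. Neuronal genes are highest in library 1 (2131 CPM), choroid plexus genes in library 4 (9434 CPM) and microglial genes lowest in library 3 (645 CPM).

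The 5 endothelial and barrier markers were present in all 4 libraries, and the barrier genes among them were near the top of the table. Cldn5, the claudin that seals brain endothelial tight junctions (chr16:18776847-18778262), had 2635, 3766, 4253 and 4529 CPM in libraries 1 to 4. Slc2a1, the glucose transporter of the barrier (chr4:119108711-119137983), had 3139, 5419, 5429.8 and 4390.0 CPM. Mfsd2a (chr4:122946850-122961188) had 665, 1035, 1662 and 1319.9 CPM. Library 1 was the lowest for each of these, and the highest was library 4 for Cldn5 and library 3 for Slc2a1 and Mfsd2a. The 2 adhesion molecules had lower levels, also per length as given next. Pecam1, the CD31 of the sort (chr11:106654217-106750628), had 341, 595, 689 and 469 CPM. Cdh5, the VE-cadherin of adherens junctions (chr8:104101625-104144511), had 127, 190.3, 135 and 179.9 CPM. Flvcr2 itself (chr12:85746539-85813585) had 276, 444, 578 and 409 CPM. All 6 genes were lowest in library 1, which had the highest neuronal sum. Library 1 was also the lowest for 1557 of all 4032 genes at 50 CPM or more.

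By mean CPM the ranks among the members were 7 for Slc2a1, 8 for Cldn5, 67 for Mfsd2a, 236 for Pecam1, 334 for Flvcr2 and 1326 for Cdh5. Without library 1 they were 6, 8, 55, 202, 290 and 1246. Because longer transcripts give more fragments, genes were compared with each other per kilobase of the principal transcript (CPM per kb). On that scale the order of the means was Cldn5 (2681 ± 590.3 CPM per kb, SD, n = 4), Slc2a1 (1409 ± 333 CPM per kb), Mfsd2a (544 ± 197 CPM per kb), Pecam1 (159 ± 46.1 CPM per kb) and Cdh5 (39.6 ± 7.94 CPM per kb). Each gene exceeded the next in all 4 libraries. The log2 ratio per kb was 0.93 ± 0.24 for Cldn5 over Slc2a1, 1.42 ± 0.35 for Slc2a1 over Mfsd2a, 1.74 ± 0.31 for Mfsd2a over Pecam1 and 1.98 ± 0.45 for Pecam1 over Cdh5 (mean ± SD of 4 libraries), so no step was within its spread. No stretch of 50 nucleotides of the 5 markers occurred in another annotated gene.

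**Figure D2:**
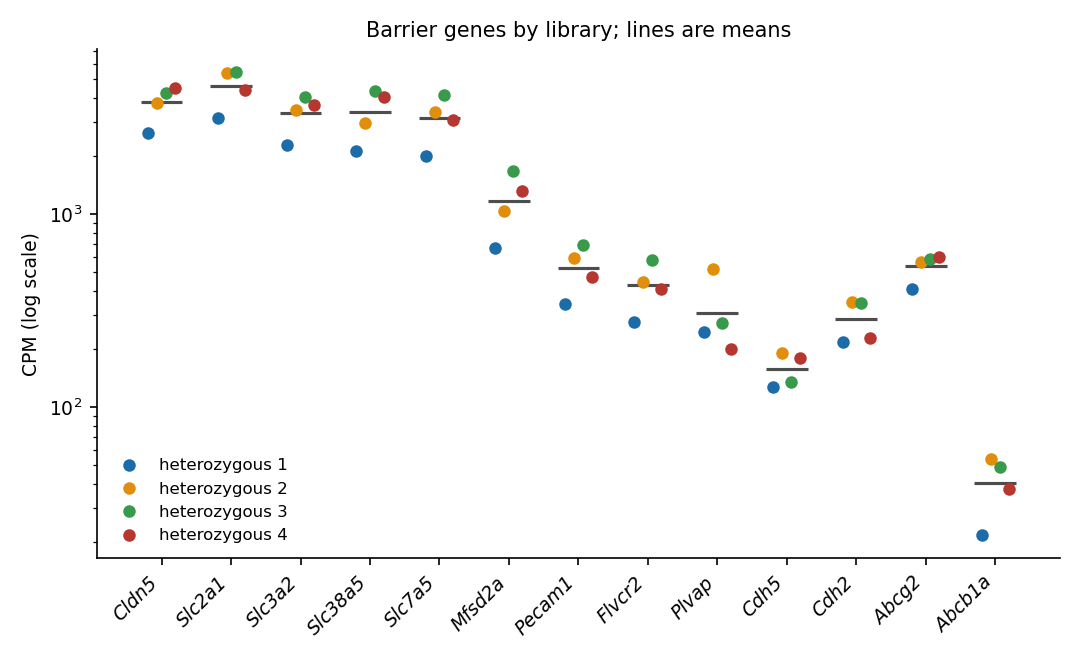
TMM-scaled CPM (log axis) of the 5 markers, Flvcr2 and other barrier genes, with 1 point per heterozygous library and a bar at the mean. Slc2a1 and Cldn5 average 4594 and 3796 CPM and Mfsd2a 1171 CPM, and the plotted genes are lowest in library 1 except Plvap, which is highest in library 2 and lowest in library 4.

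Expression was spread over a long tail. The median member had 22.7 CPM, 9005 members (67.9%) had at least 10 CPM, 2204 (16.6%) at least 100 CPM and 88 (0.663%) at least 1000 CPM. The 10 most abundant genes held 5.62% of the counts, the 50 most abundant 14.2 ± 1.27%, and 840 genes held 50% of them.

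Cytoskeleton, iron storage, matrix and transport genes shared the top of the table. Actb, cytoplasmic beta-actin, had 7251, 7154, 8832 and 7783 CPM. Sparc, a secreted matrix protein, had 5468, 7835, 8426 and 9127 CPM. Tmsb4x, the actin-binding thymosin beta 4, had 5922, 6991, 5075 and 8625 CPM. Actb was close to even between libraries, while Sparc was lowest in library 1. The iron-storage ferritin light chain Ftl1 (6617 ± 1579 CPM) and heavy chain Fth1 (4619 ± 1322 CPM) and gamma-actin Actg1 (5468 ± 306 CPM) came next in CPM, ahead of Slc2a1 and Cldn5. Fth1 was 3678, 4149, 4072 and 6577 CPM, so its mean rests in part on library 4, and without that library it was 3967 CPM. After Cldn5 followed Bsg, a membrane chaperone of monocarboxylate transporters (3521 ± 1373 CPM), the amino acid transporter genes Slc38a5 (3377 ± 1019 CPM) and Slc3a2 (3362 ± 752 CPM), the prolyl isomerase Ppia (3261 ± 594 CPM), the membrane protein Itm2a (3207 ± 554 CPM) and Slc7a5 (3151 ± 898 CPM). Thus 5 of the first 14 ranks were held by Cldn5 and 4 SLC genes.

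Scaling by length changed which genes led. Tmsb4x was first (8663 ± 1993 CPM per kb), then Ftl1 (6836 ± 1631 CPM per kb), Actb (4039 ± 401 CPM per kb), Sparc (3354 ± 690.3 CPM per kb), Fth1 (3092 ± 885 CPM per kb), Actg1 (2801 ± 157 CPM per kb), Ppia (2788 ± 507 CPM per kb) and Cldn5 (2681 ± 590.3 CPM per kb). Cldn5 thus stayed at rank 8 on both scales, and Slc2a1, with its longer transcript, was at rank 19 per kb. The 100 leading genes had a median principal transcript of 2108 nucleotides by CPM and 1262.5 nucleotides by CPM per kb, and 65 genes were in both sets. The levels of several of these genes are uncertain because their sequence recurs in other annotated genes, pseudogenes among them. Of the 50-nucleotide windows of the principal transcript, 78.9% for Ftl1, 56.7% for Actg1 and 40.5% for Ppia were found in another gene, against none for Sparc. Among the 200 most abundant genes with a transcript (199), 102 had no such window and 16 had such windows over at least 50% of their length.

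**Figure D3:**
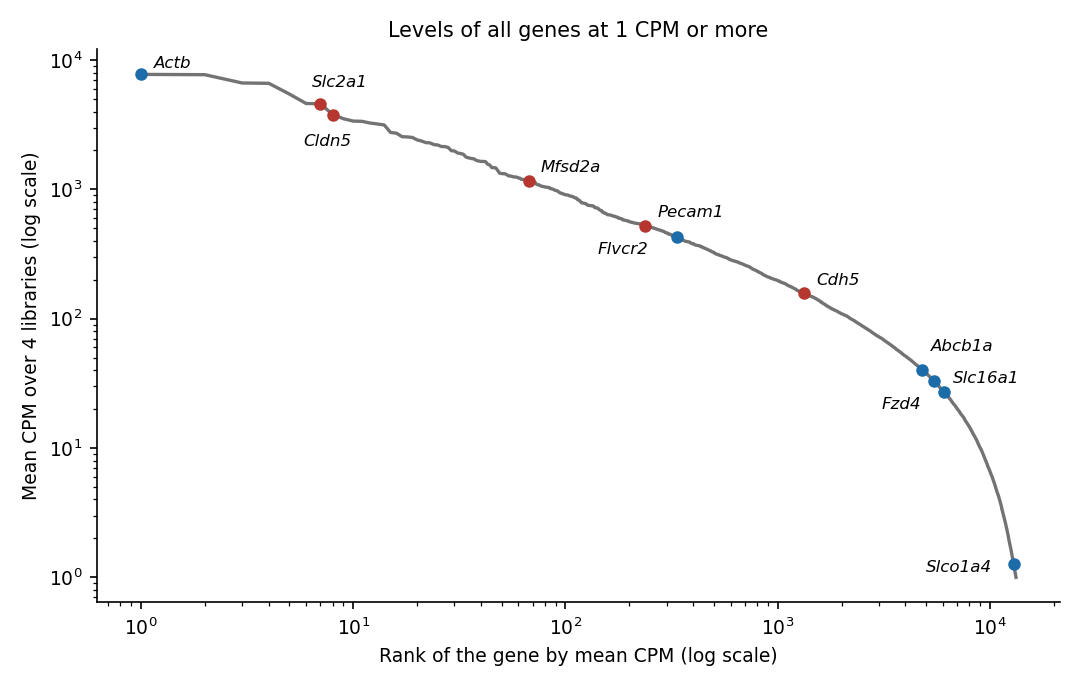
Mean TMM-scaled CPM over the 4 heterozygous libraries (log axis) against rank (log axis) for the 13264 members, with markers and other named genes picked out. Slc2a1 and Cldn5 sit at ranks 7 and 8, while Abcb1a and Slc16a1 sit in the tail.

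All 25 endothelial surface and adhesion genes were members, with a median of 354 CPM against 22.7 CPM over all members. Of these, 24 had at least 100 CPM (16.6% of all members did) and 22 lay in the top 10%. Esam, an adhesion molecule of endothelial junctions, had 1445, 2027, 2282 and 2217 CPM. Cd34, a sialomucin of endothelial and blood progenitor cells, had 1290.5, 2047, 1839 and 1721 CPM. Ramp2, the co-receptor through which adrenomedullin is sensed, had 939, 1376, 1261 and 1703 CPM. Library 1 was the lowest for 23 of the 25 genes and library 4 for the other 2, and the list's median was 239, 403, 433 and 365 CPM. Of all 4032 genes at 50 CPM or more, library 1 was the lowest for 1557 and library 4 for 941. On the scale per length, Ramp2 (1120.3 ± 268 CPM per kb) and Esam (1068 ± 204 CPM per kb) exceeded Tie1 (210.4 ± 71.01 CPM per kb) and Pecam1. The lowest member was Calcrl, the receptor that pairs with Ramp2 (29.5 ± 8.56 CPM). Per kb, Ramp2 was above Calcrl by 7.55 ± 0.30 on the log2 scale, 188-fold, in 4 of 4 libraries.

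The general endothelial transcription factors were also all present, at 20 of 20 and a median of 121 CPM, with 12 at 100 CPM or more. Lmo2, an adaptor of blood and endothelial factor complexes (637 ± 105 CPM), Sox18, a SOXF factor of vessel development (557 ± 144 CPM), and the ETS factors Ets1 (374 ± 85.5 CPM) and Elk3 (341 ± 76.7 CPM) had the highest CPM. Sox18 was 342, 627, 608 and 649.5 CPM, with library 1 apart from the other 3. Erg, an ETS factor often used as an endothelial marker, had 19.4 ± 4.95 CPM, and the blood and endothelial factors Tal1 and Lyl1 had 10.02 ± 2.97 CPM and 2.698 ± 0.922 CPM. Summed over the list, library 1 had 2541 CPM and the other 3 had 3931 to 4172 CPM.

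Factors known to be enriched in brain over other endothelium were members in 15 of 15 cases, with a median of 75.7 CPM. Foxq1, a forkhead factor of barrier endothelium, had 307, 532, 627 and 497 CPM. Foxf2, another forkhead factor, had 276 ± 61.8 CPM, and Lef1, a nuclear effector of Wnt signalling, had 213 ± 35.1 CPM. Ppard (8.27 ± 1.77 CPM) and Zfp551 (1.398 ± 0.941 CPM) were the lowest, and Zfp551 was below 1 CPM in library 3. Foxq1 was lowest in library 1 and highest in library 3.

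Tight junction genes ranged from Cldn5 near the top of the table to almost none. Of 19 listed genes found in the counts, 18 were members, the median was 31.2 CPM and 6 had at least 100 CPM. Behind Cldn5 and Esam came Lsr, the angulin of tricellular contacts (747 ± 155 CPM), and F11r, the junctional adhesion molecule A (571 ± 92.5 CPM). Occludin, Ocln, had 69.8, 119, 152 and 112 CPM, lowest in library 1 and highest in library 3. The scaffold Tjp1, ZO-1, had 62.2, 109, 103 and 107 CPM. Per kb, Cldn5 exceeded Tjp1 by 7.64 ± 0.14 on the log2 scale in 4 of 4 libraries. Cldn12, long described in brain endothelium, had 14.7 ± 5.14 CPM. Cldn3 was at 1.899, 0, 1.02 and 9.65 CPM and Cldn1 at 3.61, 0, 1.37 and 11.9 CPM, both highest in library 4, the library with the highest choroid plexus sum. The scaffold cingulin, Cgn, was at or near 0 in every library (0.0107 CPM on average), whereas its relative Cgnl1 had 75.9 ± 20.2 CPM.

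Adherens junction genes were members in 11 of 11 cases, at a median of 158 CPM. Beta-catenin, Ctnnb1, which serves both cadherins and Wnt signalling, had 1133 ± 181 CPM, plakoglobin, Jup, 419 ± 96.6 CPM, alpha-catenin, Ctnna1, 361 ± 80.7 CPM and the nectin Pvrl2 333 ± 51.5 CPM. N-cadherin, Cdh2, had 217, 350.4, 344 and 228 CPM, lowest in libraries 1 and 4. Per kb the log2 ratio of Cdh2 over Cdh5 was 0.56 ± 0.41, above 0 in all 4 libraries but only 0.07 in library 4. Cdh2 is also a cadherin of neurons, radial glia and pericytes, and the part of these cells in its level was not tested.

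The nutrient transporters of the barrier were members in 30 of 30 cases, with a median of 217 CPM. Of these, 18 had at least 100 CPM. Slc38a5, a carrier of glutamine and other neutral amino acids, had 2127, 2983, 4346 and 4052 CPM. Slc7a5, the light chain of the large neutral amino acid exchanger, had 1990.3, 3391, 4156 and 3067 CPM. Its heavy chain Slc3a2 had 2293, 3457, 4035 and 3663 CPM. All 3 were lowest in library 1 and highest in library 3. Per kb, Slc3a2 was above Slc7a5 by 1.06 ± 0.14 on the log2 scale in 4 of 4 libraries, while Slc3a2 and Slc38a5 were not separated (0.06 ± 0.17, 2 of 4 libraries). The iron exporter Slc40a1 had 1677 ± 408 CPM, the cationic amino acid carrier Slc7a1 1013 ± 256 CPM, the neutral amino acid carrier Slc1a4 1012 ± 269 CPM, the glutamine carrier Slc38a3 987 ± 272 CPM and the taurine carrier Slc6a6 631 ± 142 CPM. The thyroid hormone carrier Slco1c1 had 162 ± 62.7 CPM per kb. The transferrin receptor Tfrc had 87.7 ± 12.8 CPM. Among these 30 genes library 1 was the lowest for 22 and library 3 the highest for 19. Among all 4032 genes at 50 CPM or more, library 1 was the lowest for 1557 and library 3 the highest for 1101.

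Some carriers known from the mature barrier had low CPM at this age. Slc16a1, the monocarboxylate transporter MCT1, had 26.1, 25.5, 53.6 and 27.02 CPM, and Bsg, which carries it to the membrane, exceeded it per kb by 8.26 ± 0.52 on the log2 scale, 307-fold. The organic anion transporter Slco1a4 had 0.475, 0, 1.62 and 2.996 CPM and was absent from the counts of library 2. The sodium-dependent creatine carrier Slc6a8 had 5.91 ± 1.46 CPM. Slc16a1 was highest in library 3, and its other 3 libraries lay close together.

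Of 359 genes in the table with an SLC or SLCO symbol, 232 were members, against 54.3% of the whole table. Of these, 39 had at least 100 CPM (16.6% of all members did) and 7 at least 1000 CPM (0.663% did). Together the 359 genes held 3.43 ± 0.609% of the counts. The count is by symbol, so it includes genes that are not carriers. The 5 most abundant (Slc2a1, Slc38a5, Slc3a2, Slc7a5 and Slc40a1) held 48.5 ± 2.68% of the SLC counts and the 15 most abundant 71.2 ± 2.90%. Among those 15, Slc25a5 (935 ± 90.3 CPM) and Slc25a39 (498 ± 42.4 CPM) are mitochondrial carriers, and Slc9a3r2 (633 ± 113 CPM) is a scaffold that carries an SLC name. The mitochondrial Slc25a5 varied little between libraries (892, 920.0, 862 and 1065 CPM), while the 5 leading SLC genes were all lowest in library 1.

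In the lipid transport and transcytosis list, 19 of 20 genes were members with a median of 212 CPM. Apoe, an apolipoprotein also made by microglia and glia, had 2086, 1986, 1396 and 2020.0 CPM, lowest in library 3, as were the microglial genes. Cav1, the coat protein of caveolae, had 277, 389, 436 and 478 CPM. Plvap, the diaphragm protein of leaky vessels and of early brain vessels, had 244, 520.0, 271 and 199 CPM, highest in library 2, and without that library its mean was 238 CPM. Per kb, Cav1 and Plvap were not separated (log2 ratio 0.09 ± 0.72, Cav1 higher in 2 of 4 libraries). Among lipoprotein receptors Lrp8 had 369 ± 143 CPM and Scarb1 489 ± 92.6 CPM, with Lrp1 and Vldlr at 22.3 and 4.77 CPM. Fabp4, a fatty acid binding protein of peripheral endothelium, was below 1 CPM (0.755 ± 1.41 CPM).

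ABC efflux pumps were members in 14 of 15 cases, at a median of 18.5 CPM. Abcg2, the breast cancer resistance protein, had 406, 566, 587 and 601 CPM. Abcb1a, the P-glycoprotein of the rodent barrier, had 21.6, 53.8, 48.6 and 37.5 CPM. Both were lowest in library 1, and no library of one overlapped with the other. Per kb the log2 ratio of Abcg2 over Abcb1a was 3.61 ± 0.38. Abca1, a cholesterol exporter, had 334 ± 84.1 CPM, Abcc4 had 38.6 ± 15.1 CPM, and Abcb1b was below 1 CPM (0.964 ± 0.529 CPM). Of 50 genes in the table with an ABC symbol 33 were members, against 54.3% of the whole table.

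Of the ion pumps and channels 21 of 22 were members, with a median of 25.6 CPM. The sodium pump subunit Atp1b3 had 404 ± 60.1 CPM. The mechanosensitive channel Piezo1 had 88.1 ± 18.4 CPM, and the potassium channel genes Kcnj8 and Kcnq1 had 74.9 ± 27.96 CPM and 66.6 ± 21.6 CPM. Kcnj8 is also a pericyte gene. The astrocyte water channel Aqp4 was at 0, 0, 1.15 and 0 CPM.

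Receptors for VEGF and angiopoietins had the highest median CPM of the receptor lists: 11 of 11 were members, the median was 288 CPM and 8 had at least 100 CPM. Kdr, the main signalling VEGF receptor, had 538, 999, 1204 and 680.1 CPM. Tie1, an orphan partner of the angiopoietin receptor, had 522, 1048, 1151 and 723 CPM. Tek, the angiopoietin receptor Tie2, had 239, 337, 415 and 224 CPM. Kdr and Tie1 were lowest in library 1 and highest in library 3, and Tek was lowest in library 4. Per kb, Kdr (144 ± 50.9 CPM per kb) exceeded Flt1, the decoy VEGF receptor (62.3 ± 24.6 CPM per kb), and exceeded the co-receptor Nrp1 by 0.81 ± 0.21 on the log2 scale. Flt4, the VEGF-C receptor, had 120.1 ± 46.4 CPM, while Prox1, the regulator of lymphatic identity, was below 1 CPM (0.688 ± 0.839 CPM).

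Wnt receptors and their helpers had a lower median, 18.4 CPM, with 14 of 15 as members and 1 at 100 CPM or more. That gene was Fzd6 (85.2, 135, 198 and 110.3 CPM). Fzd4, the Norrin receptor of retinal and brain vessels, had 16.4, 20.3, 39.3 and 32.5 CPM. Per kb, Fzd6 was above Fzd4 by 2.94 ± 0.40 on the log2 scale in all 4 libraries. The Norrin co-receptor Tspan12 had 72.6 ± 13.3 CPM, and the Wnt7 co-receptors Adgra2 (GPR124) and Reck had 53.3 ± 13.96 CPM and 18.4 ± 6.26 CPM. Of the LRP co-receptors Lrp6 had 22.6 ± 3.32 CPM and Lrp5 4.76 ± 1.596 CPM. Apcdd1, a Wnt target that inhibits the pathway, had 645, 1265, 1753 and 1121 CPM, and per length it was above Fzd6 (109.9 ± 41.9 CPM per kb against 30.6 ± 11.2 CPM per kb).

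TGF-beta and BMP receptors were members in 11 of 12 cases, at a median of 22.9 CPM, and 3 stood above 100 CPM. These were the co-receptor endoglin, Eng (491 ± 117 CPM), the endothelial type I receptor Acvrl1, known as ALK1 (323 ± 75.6 CPM), and the type II receptor Tgfbr2 (239 ± 58.1 CPM). The more widely expressed type I receptor Tgfbr1 had 19.7 ± 5.79 CPM and the type II BMP receptor Bmpr2 had 26.1 ± 12.1 CPM. Among Notch genes (8 of 8 members, median 66.2 CPM) the tip-cell ligand Dll4 had 170.1 ± 46.8 CPM, the endothelial receptor Notch4 122 ± 39.6 CPM, Notch1 113 ± 35.2 CPM and the ligand Jag2 108 ± 31.9 CPM. Notch3, the mural cell receptor, had 5.92 ± 1.96 CPM.

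Guidance receptors and their ligands were all members (19 of 19, median 33.0 CPM), led by ephrin A1, Efna1 (379.8 ± 55.8 CPM), the endothelial Roundabout Robo4 (354 ± 92.5 CPM) and the venous Eph receptor Ephb4 (174 ± 33.8 CPM). The arterial partner of Ephb4, Efnb2, had 34.5 ± 5.69 CPM. Among the G protein-coupled receptors 22 of 25 were members, with a median of 31.5 CPM. The apelin receptor Aplnr had 1178, 1593, 1765 and 1358 CPM, and its ligand Apln had 248, 376, 505 and 336 CPM. Per kb the receptor was above the ligand by 1.81 ± 0.18 on the log2 scale in 4 of 4 libraries. The sphingosine 1-phosphate receptor S1pr1 (377 ± 63.5 CPM), the orphan adhesion receptors Adgrl4 (366 ± 126 CPM) and Adgrf5 (209 ± 80.1 CPM), the proton sensor Gpr4 (164 ± 41.6 CPM) and the adenosine receptor Adora2a (101 ± 22.03 CPM) followed, while Ptger4 and F2rl1 had no count.

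Growth factor and insulin receptors were members in 17 of 18 cases, none at 100 CPM, with a median of 20.6 CPM. Insr had 75.9 ± 23.8 CPM, Kit 57.2 ± 8.25 CPM and Igf1r 56.6 ± 9.94 CPM, Egfr was near the bound of 1 CPM (1.06 ± 1.03 CPM) and Erbb3 had no count. Of the integrins 12 of 15 were members, at a median of 23.6 CPM. Itgb1, the shared beta subunit, had 523 ± 124 CPM and the fibronectin-binding Itga5 had 260.2 ± 69.96 CPM. Per kb the ratio of Itgb1 over Itga5 was 1.22 ± 0.12 on the log2 scale in 4 of 4 libraries. Itgb8, the neuroepithelial subunit that activates TGF-beta around brain vessels, was at 0.199 CPM and no member.

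All 29 secreted factors of the list were members, with a median of 57.1 CPM. Beyond Sparc, the insulin-like growth factor binding proteins Igfbp7 (1541 ± 458 CPM) and Igfbp4 (1155 ± 163 CPM) and the Wnt inhibitor Apcdd1 (1196 ± 456 CPM) exceeded 1000 CPM. The pericyte attractant Pdgfb had 130.0, 224, 239 and 232 CPM, lowest in library 1. Angpt2, the context-dependent Tie2 ligand, had 34.9 ± 13.7 CPM and the tip-cell gene Esm1 10.99 ± 5.14 CPM. Basement membrane genes (18 of 18 members, median 279 CPM) were led after Sparc by the collagen IV chains Col4a1 (1568 ± 369.5 CPM) and Col4a2 (1269 ± 293 CPM), the endostatin precursor Col18a1 (668 ± 150.5 CPM) and the nidogens Nid1 (533 ± 183 CPM) and Nid2 (525 ± 159 CPM). For the laminin chains of endothelial basement membrane, Lama4, Lamb1 and Lamc1 had 31.6 ± 8.86 CPM per kb, 27.6 ± 9.202 CPM per kb and 16.7 ± 2.68 CPM per kb. Per kb, Lama4 over Lamb1 was 0.21 ± 0.10 and Lamb1 over Lamc1 0.67 ± 0.31 on the log2 scale, each in the same direction in 4 of 4 libraries.

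Glycolytic genes were members in 18 of 18 cases, at a median of 221 CPM, with pyruvate kinase Pkm at 2147 ± 242 CPM and lactate dehydrogenase Ldha at 1324 ± 132 CPM. These 2 differed little between libraries, and Pgam1 and Tpi1 had 513 ± 21.9 CPM and 501 ± 22.97 CPM. Eno1 had 53.5, 53.2, 53.5 and 51.3 CPM and Eno1b 92.6, 100.1, 14.4 and 0.555 CPM. The levels of these enolase rows are uncertain, since 1428 of the 1978 windows of Eno1 and 1472 of the 1742 windows of Eno1b occurred in another annotated gene. Cell cycle genes were members in 20 of 20 cases (median 111 CPM), with Mcm6 at 272 ± 53.1 CPM, Cdk1 at 152 ± 22.7 CPM and Mki67, a proliferation antigen, at 19.2 ± 3.28 CPM. Immediate-early genes, which tissue dissociation is known to induce, were members in 14 of 16 cases with a median of 155 CPM and summed to 1718, 1458, 2565 and 3384 CPM. Fos had 266, 117, 292 and 498 CPM, and 11 of the 16 genes were highest in library 4. Library 4 was also the highest for 1271 of all 4032 genes at 50 CPM or more.

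In a list of 121 families of paralogs the leading member was compared with the others by its share of the family's summed CPM per kb. A single member held at least 75% in 66 families, at least 90% in 33 of these, 50 to 75% in 43 families and under 50% in 12. The median share of the leader was 81.3%. The leader was highest in all 4 libraries in 105 families, in 3 libraries in 15 and in 1 library in 1. By role, a leader at 75% or more was found in 8 of 11 junction families, 15 of 25 transporter families and 15 of 28 receptor families. The same held for 4 of 8 ligand, 2 of 5 matrix and 10 of 21 transcription factor families. It also held for 12 of 23 families of cytoskeleton, energy and other genes. Families differed in size, and with only 2 members the leader holds at least 50% by definition. Members with no count were kept, so these shares and counts depend on how the families were drawn up.

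The junction and transporter families held some of the most uneven shares. Cldn5 held 99.6 ± 0.242% of the CPM per kb of 18 claudins, with shares of 99.4, 99.8, 99.7 and 99.3% in libraries 1 to 4 and Cldn12 in second place. Slc2a1 held 98.1 ± 0.556% of 11 glucose transporters, ahead of the intracellular Slc2a8. Mfsd2a held 99.9 ± 0.0510% against Mfsd2b. Flvcr2 held 98.5 ± 0.467% of the 3 SLC49 transporters compared (Flvcr1, Flvcr2 and Mfsd7a), ahead of Flvcr1. The reserve is that the sort selected cells by the Flvcr2 locus. Slc7a5 held 87.6 ± 0.826% of the light chains and Slc38a5 76.9 ± 2.46% of the SLC38 carriers, the latter close to the 75% bound. Leaders included, 6 of 7 light chains, 9 of 9 SLC38 carriers, 10 of 11 glucose transporters and 6 of 18 claudins had 1 CPM or more. Abcb1a held 96.6 ± 3.15% against Abcb1b, though 15.5% and 18.0% of their 50-nucleotide windows are common to both.

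Among receptors and factors, Ramp2 held 99.6 ± 0.122% of the RAMP co-receptors, Eng 99.0 ± 0.235% against Tgfbr3, Robo4 96.7 ± 2.16% of the Roundabout receptors, Efna1 94.3 ± 2.86% of the A-type ephrins and Nrp1 89.4 ± 1.59% against Nrp2. For transcription factors, Klf2, the shear-responsive factor, held 95.9 ± 0.379% against Klf4 and Klf1, the only other KLF genes compared. Fli1 held 91.4 ± 2.34% ahead of Erg, and Foxf2 90.2 ± 2.30% against Foxf1. In the delta-catenin family, which has a neuronal member, the share moved with the neuronal sum. The share of Ctnnd1 against the neuronal Ctnnd2 was 66.8% in library 1, where that sum was highest, and 96.8, 90.3 and 93.8% in libraries 2 to 4. The part of neuronal RNA in this share was not tested. The share is also uncertain because 73.0% of the 50-nucleotide windows of Ctnnd1 occurred in another annotated gene, against none for Ctnnd2.

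Other families were shared between members. Among the Wnt effectors Lef1 held 40.2 ± 2.18% with Tcf7 second. The VEGF receptors were divided with Kdr at 64.2 ± 2.22%, the Notch receptors with Notch4 at 57.6 ± 2.73%, collagen IV with Col4a1 at 54.6 ± 2.33% and nidogens with Nid2 at 55.6 ± 2.81%. Cdh2 held 57.2 ± 6.58% of the classical cadherins. Fabp5 held 49.1 ± 8.95% of the fatty acid binding proteins, and Fabp7, the radial glial member, led without library 1, 2 or 4. Ifitm3 led the interferon-induced transmembrane proteins with 76.0% in library 4 but 41.0, 47.4 and 46.8% in libraries 1 to 3, and Ifitm2 led without library 4. With no scaling by length the leader became Vegfc for the VEGF ligands, Timp3 for the TIMPs, Mef2c for MEF2 and Smad2 for SMAD2 and SMAD3, so these orders rest on transcript length.

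How far 50-nucleotide reads can separate the members was checked from sequence. In 107 of 121 families no member at 1 CPM or more shared a 50-nucleotide window with another, and 390 of 421 such members had none. This check counted only windows shared inside a family, not those that recur in other annotated genes. In 4 families a member shared at least 10% of its windows with a relative. These were the alpha-tubulins (52.0% for Tuba1a, 64.6% for Tuba1b and 59.8% for Tuba1c), the beta-tubulins (45.6% for Tubb2a and 33.4% for Tubb2b), the P-glycoproteins and the CTLA2 inhibitors (11.9% for Ctla2b). Tuba1a held 77.7 ± 4.63% of the alpha-tubulins, a share that is uncertain for this reason. The actins, whose coding starts are printed above, shared only 2.57% (Actb) and 1.94% (Actg1) of their windows within the family, and Actb held 58.9 ± 3.29%.

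**Figure D4:**
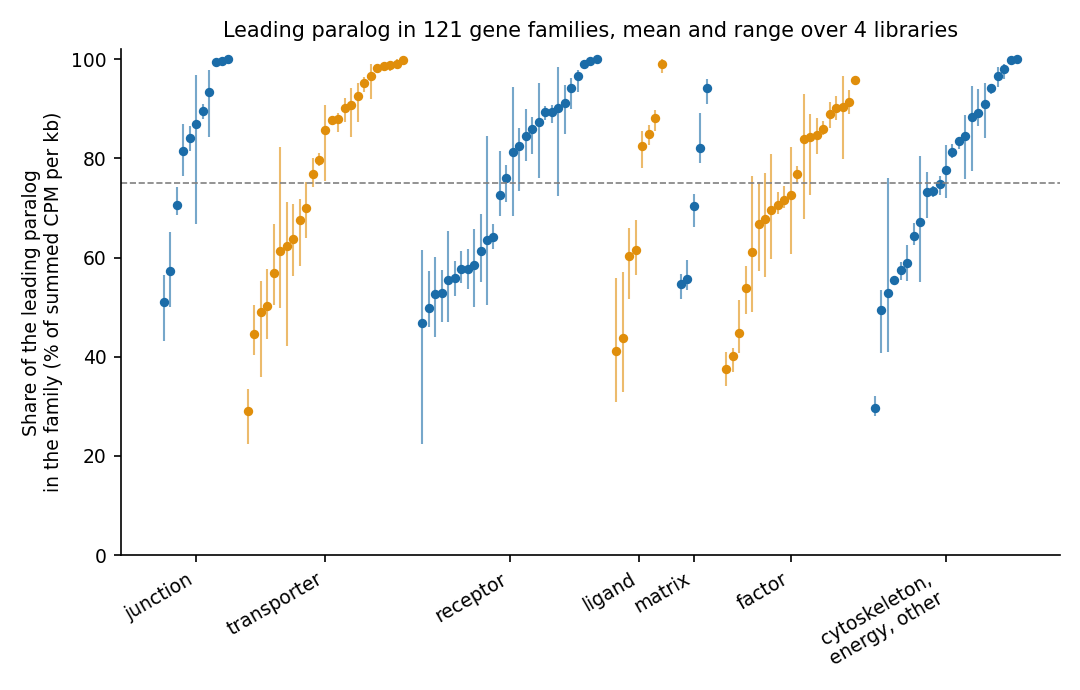
Share of each family's summed CPM per kb held by its leading member, grouped by role, with 1 point per family (mean of the 4 heterozygous libraries), a vertical bar from the lowest to the highest library and a dashed line at 75%. In 66 of 121 families the point lies at or above the line, and claudins and glucose transporters lie above 98%.

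The spread between libraries shrank with level and then levelled off. The median coefficient of variation (CV, SD over mean) was 50.4% for the 4259 members at 1 to 10 CPM, 23.6% at 10 to 50 CPM, 16.6% at 50 to 200 CPM, 16.0% at 200 to 1000 CPM and 17.2% for the 88 genes above. Counting error alone would give medians of 13.8, 5.65, 2.94, 1.56 and 0.705%, so at every level the median spread exceeded counting error. Over the members at 10 CPM or more the median CV was 19.8%, and the highest library was within 2-fold of the lowest for 77.6% of them. The common biological coefficient of variation estimated by edgeR was 41.3% over 13540 genes. That set includes genes below 10 CPM, so the value cannot be set against the median CV of 19.8%. With 1 library left out it lay between 38.4% (without library 4) and 45.4% (without library 3).

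Genes of other cell types were frequent among the most variable. At 50 CPM or more the highest CVs were those of Ttr (187%), Folr1 (183%), Sostdc1 (169%), Spp1 (124%), Ifitm3 (112%), Eno1b (99.6%), Ina (96.8%), Elavl4 (94.5%), Lgals9 (92.0%), Tubb3 (91.3%), Stmn3 (88.0%) and Gap43 (87.2%). Ttr, Folr1 and Sostdc1 were high in library 4 only, with Folr1 at 8.74, 0, 5.89 and 218 CPM. Ttr was at rank 22 by mean CPM but at rank 1393 without library 4, where its mean was 150.3 CPM. Tubb3, a neuronal tubulin, had 789, 118, 293 and 156 CPM, and Ina, Elavl4, Stmn3 and Gap43, also neuronal, were likewise highest in library 1. Of the 100 most variable genes, 60 were highest in library 1 and 24 in library 4. Of all 4032 genes at that level, 741 were highest in library 1 and 1271 in library 4. Of the 100, 14 were on a list of another cell type, against 30 of the 4032.

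The 12 lowest CVs at 50 CPM or more lay between 1.07 and 2.36%. Dnm1l, a GTPase of mitochondrial fission, had 53.5, 54.8, 54.5 and 54.04 CPM (CV 1.07%), and Drg2, another GTPase, had 131, 131, 132 and 134 CPM (CV 1.08%). Gsr, glutathione reductase, had 90.3, 91.3, 88.9 and 88.7 CPM (CV 1.38%). These 3 were picked as the lowest of 4032 genes, and their CVs lay below the median counting error of genes at 50 to 200 CPM (2.94%). Ing1, Stub1, Ufd1l, Mrpl37, Slc30a9, Eno1, Lemd2, Psmd13 and Sf3a3 completed the 12 lowest, with CVs between 1.61 and 2.36%. Between these ends lay the markers, with CVs of 28.9% for Pecam1, 20.1% for Cdh5, 22.0% for Cldn5, 23.6% for Slc2a1 and 36.2% for Mfsd2a, above the median of genes at their level.

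**Figure D5:**
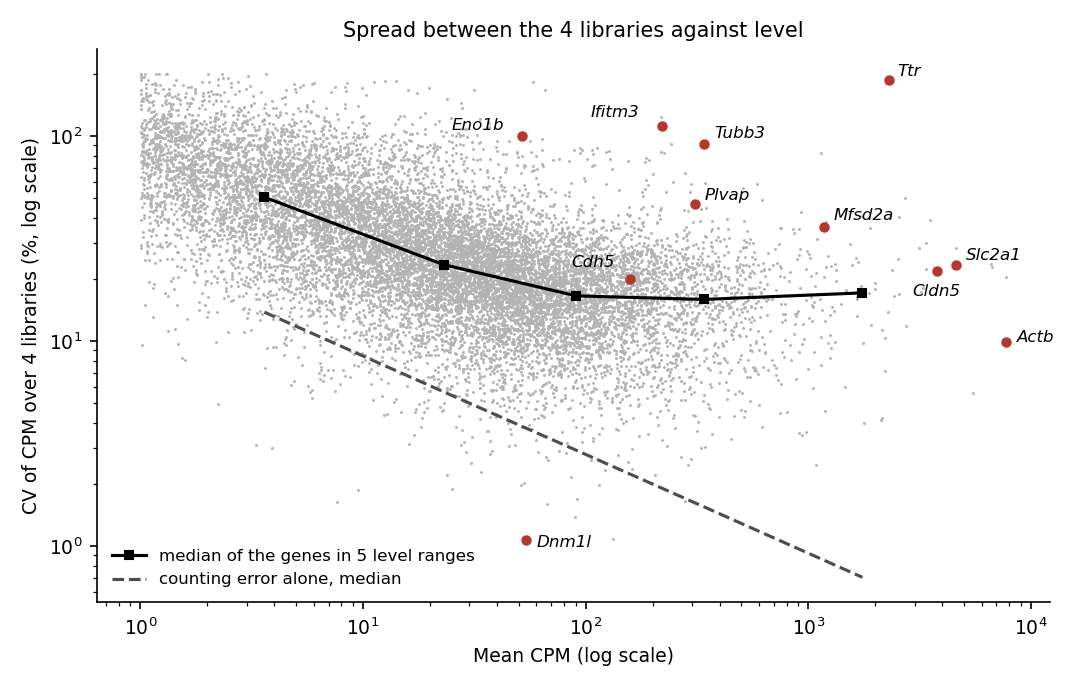
CV between the 4 heterozygous libraries (percent, log axis) against mean TMM-scaled CPM (log axis) for the members, with the median CV and the median expected from counting error by level. Ttr, Ifitm3 and Tubb3 stand far above the median, which stays near 16 to 17% from 50 CPM upward.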

How the data were processed

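RNA was measured in sorted endothelial cells of E14.5 mouse brain, 2000 to 5000 cells per library, with SMART-Seq v4 complementary DNA and Nextera XT libraries read as 50-nucleotide single ends, per the labels' protocols. The deposited table holds whole-number read counts per gene. TopHat2 0.7, Cufflinks 2.2.1 and the build mm10 are named per the submitters' processing notes. Not given in the sources used here were the counting program, its use of strand and how it treated reads that match several places, so levels of overlapping genes and near-identical copies are uncertain.

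Counts were scaled to CPM with TMM factors of edgeR 4.0.16 (R 4.3.3) over all 8 libraries, using 13540 genes that passed filterByExpr. The 4 knockout libraries entered only this step. Lengths were those of GENCODE M21 principal transcripts (GRCm38, the same assembly as mm10), found for 13172 members (99.3%). CPM per kb assumes even coverage of the transcript. In 27 rows the symbol had been turned into a date, and 4 of them with a repeated symbol were left out of the lists. In the 4 libraries (9107329 to 22615252 counts) 1 CPM corresponded to between 9.42 and 23.4 counts.

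The genes, gene lists and families were chosen with earlier results of these data known. Named genes are the 5 markers and Flvcr2, the 20 genes of highest mean CPM and of highest CPM per kb, up to 6 leading members of each list, low members that define a cell type or are barrier genes, leaders and runners-up of families, the 15 leading SLC genes, and the 12 highest and 12 lowest CVs at 50 CPM or more. Some members that this rule names are not reported here. Other list and family members are named where a pair, a share or a low level is described. Errors are SD over 4 libraries. No significance test between genes was run, since a sign-flip test over 4 libraries cannot go below 0.125. Dixon's criterion was applied to find values in which 1 library lay far from the other 3. The CV and dispersion steps were also run on simulated counts with a preset spread, which differs from the spread estimated here. That run checked the code only and lends no weight to the values above. Alternatives covered the scaling, the minimum CPM, the share that marks a leader, each left-out library and, chosen after seeing the data, a length over all exons.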

Additional observations from a re-analysis of the deposited data

Results flagged for a closer look

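In 20 of 247 sums and gene levels checked (8.1%), 1 library lay far from the other 3, by Dixon's criterion for 4 samples. Chance gives about 1 in 20 such groups only where the groups are independent and not picked for their spread. The values checked here included Ttr and other genes with the highest CVs, and list sums beside their own members. The flagged share therefore cannot be compared with that rate, and no excess over chance is read from it. Library 4 was the distant one in 8 cases, libraries 1 and 3 in 6 each, and library 2 in 0. The distant values are given here in CPM.

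Library 4 was high for the choroid plexus sum (9433.6), for the choroid plexus genes Ttr (8753.26), Folr1 (218.288) and Sostdc1 (231.438), for ferritin Fth1 (6577.38) and for the interferon-linked genes Ifitm3 (587.28) and Lgals9 (576.404). It was low for the type I receptor Acvr1 (21.5846).

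Library 1 was low for the sum of endothelial transcription factors (2540.82, against 3931 to 4172 in the others), for Sox18 (342.315), Foxp1 (89.2582) and Col4a2 (833.52). It was high for the smooth muscle actin Acta2 (55.9288) and the embryonic globin Hbb-bh1 (24.7834).

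Library 3 was low for Apoe (1395.66), for the complement gene C1qc (89.3444) and for the embryonic globin Hbb-y (84.8623). It was high for the efflux pump Abcc4 (61.0855), the channel Kcnq1 (98.9491) and the receptor Fzd1 (50.1148).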

How the results depend on the processing

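The number of genes at 1 CPM or more, the share of counts in the 50 most abundant genes, the endothelial surface level, the number of SLC genes and the number of families with a leader stayed within 1 SD or 1.5 times of their values under the other scalings and filters, except as follows. The genes at 1 CPM or more numbered between 11694 (in each library) and 14195 over all settings. Raising the share that marks a leader to 90% left 33 families in place of 66, while 60% gave 91 and at least 75% in each library gave 56. The median CV of 19.8% became 24.9% for genes at 1 CPM or more and 16.5% at 50 CPM or more, and lay between 17.5 and 20.3% when a library was left out. The share of genes within 2-fold, 77.6%, became 59.7% at 1 CPM or more and 89.9% at 50 CPM or more, and lay between 82.2 and 87.9% when a library was left out, which also leaves fewer libraries to differ. Of 1658 other values recomputed, 78 moved by 1 SD or more, 1580 did not and 0 changed direction. A length over all exons changed the leader in MEF2 only, to Mef2a. No paired analysis was possible because only 1 group is described and no groups are compared. Depth limits genes near 1 CPM, where counting error gave a median CV of 13.8%.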

Other observations

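Imprinted genes, which are read from only the maternal or the paternal copy, were looked at after their values were seen. Of the 20 genes listed, 17 were members, 8 had at least 100 CPM and 2 at least 1000 CPM. Of the whole table, 54.3% of genes were members. Of all members, 16.6% had at least 100 CPM and 0.663% at least 1000 CPM. Because the values were known beforehand, these counts are not read as a trait of imprinted genes. Mest had 1863, 3103, 2284 and 2216 CPM in libraries 1 to 4, which put it at rank 21 of all members (2366 ± 524 CPM, SD, n = 4). Cdkn1c, an inhibitor of the cell cycle, had 456 ± 63.0 CPM, the receptor adaptor Grb10 156 ± 20.7 CPM and the sarcoglycan Sgce 126 ± 12.2 CPM. Igf2, a growth factor, had 217, 289, 70.7 and 151 CPM, and H19, the noncoding RNA beside it, had 172, 241, 70.3 and 145 CPM. Both were highest in library 2 and lowest in library 3. Nnat had 2543, 519, 846 and 667 CPM and Ndn 487, 99.6, 181 and 108 CPM, so both were highest in library 1, the library with the highest sum of neuronal genes. Without library 1 the mean of Nnat was 677 CPM. The part of other cells in these levels was not tested. Zim1 had no count.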
